A study of Homo sapiens with 8 samples.

Results

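The PER and CRY genes encode the repressors of the circadian clock, and CLOCK and BMAL1 encode the activators they act on. All 7 genes chosen by name, PER1, PER2, PER3, CRY1, CRY2, CLOCK and BMAL1, had 1 probe set each, out of 22458 genes named on the arrays. The cells were Caco-2 of clone TC7, an epithelial line derived from a human colon tumour. One group of 4 arrays came from cells transfected overnight with 200 ng of a plasmid expressing CRTC1, a coactivator of the transcription factor CREB. The other group of 4 arrays, called empty vector here and titled CTRL in the labels, came from cells given 200 ng of the matching plasmid without insert (pBS). Both groups were subconfluent and grew in the same high-glucose medium with serum and antibiotics. The cells are 1 clone, and each value is an average over transfected and untransfected cells, whose shares the labels do not state, as they do not state the plasmid's promoter. In such bulk RNA, fewer cells with a transcript and less of it per cell cannot be told apart. Both groups were collected at the same stated time, so these arrays do not follow a rhythm.

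In the mammalian clock, a heterodimer of CLOCK and BMAL1 binds E-box sequences and drives transcription of the PER and CRY genes. PER and CRY proteins accumulate, enter the nucleus and block that heterodimer, which closes a loop of about a day. The PER genes are also immediate targets of cAMP signalling: CREB binds cAMP response elements (CREs) near PER1 and PER2, and in the mouse brain's suprachiasmatic nucleus CRTC1 takes part in the induction of Per1 by light. Intestinal epithelium has a clock of this kind, and feeding time is among the signals that set it. The comparison asked whether transcripts of these genes differ between CRTC1-transfected cells and their empty vector controls.

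The promoters of PER1 and PER2 are shown because these are the PER genes known to answer to both inputs. Each window runs from 250 bases before to 50 bases after the annotated start, 5′ to 3′ on the gene's own strand, from RefSeq on GRCh38.p14. Capitals mark every match, on either strand, to the full CRE TGACGTCA, its short form TGACG (called short CRE here), the E-box CACGTG or the E-prime box CACGTT, a variant E-box. The full CRE contains the short one, so a full CRE would count under both. The PER1 window is chr17:8152355-8152654 on the minus strand, and the PER2 window is chr2:238288561-238288860 on the minus strand.
PER1: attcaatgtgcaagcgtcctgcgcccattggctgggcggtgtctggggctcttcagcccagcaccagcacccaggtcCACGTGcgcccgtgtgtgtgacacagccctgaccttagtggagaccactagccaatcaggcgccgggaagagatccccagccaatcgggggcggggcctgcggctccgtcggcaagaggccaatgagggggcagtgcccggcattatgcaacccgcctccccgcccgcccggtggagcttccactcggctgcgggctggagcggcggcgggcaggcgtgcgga
PER2: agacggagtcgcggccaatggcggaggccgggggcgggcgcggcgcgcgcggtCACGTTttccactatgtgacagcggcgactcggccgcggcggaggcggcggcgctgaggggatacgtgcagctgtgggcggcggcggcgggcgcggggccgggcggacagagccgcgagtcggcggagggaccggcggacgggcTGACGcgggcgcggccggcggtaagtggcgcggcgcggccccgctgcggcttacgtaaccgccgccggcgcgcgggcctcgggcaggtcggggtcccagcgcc

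The PER1 window held 1 E-box at -173 to -168, counted from the start, and no match to either CRE form. The PER2 window held 1 E-prime box at -197 to -192 and 1 short CRE at -53 to -49. Among the others, the CRY1 window held an E-prime box at -89 to -84 on the opposite strand and a short CRE at -18 to -14. The CRY2 window held a short CRE at -85 to -81 and the CLOCK window one at 3 to 7 bases after the start, while the PER3 and BMAL1 windows held none of these motifs. No window held the full CRE, which occurred in 1.85% of the 35116 promoter windows of this length. The short CRE occurred in 24.6% of them, the E-box in 7.26% and the E-prime box in 5.34%. A match describes the letters in a window and not a binding site, and sites farther away are not covered.

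**Figure D1:**
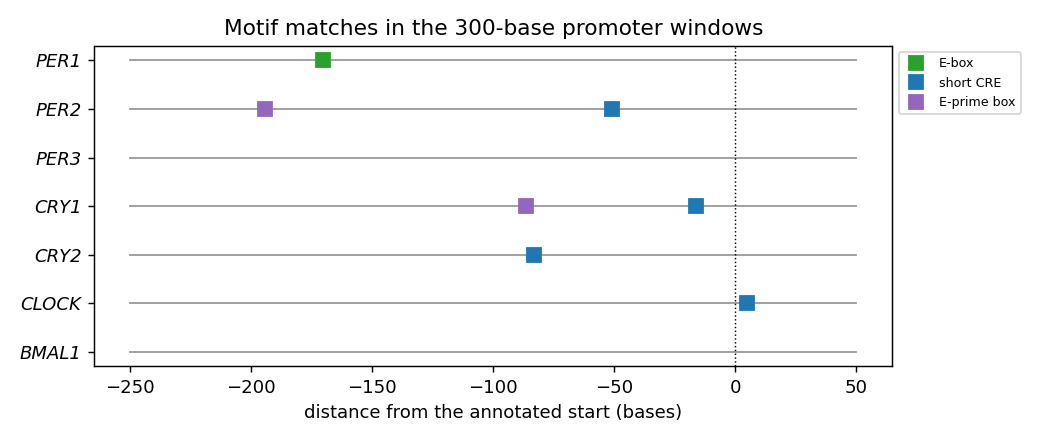
Motif matches in the promoter windows of the 7 genes, with the distance from the annotated start in bases on the horizontal axis and 1 line per gene. PER2 and CRY1 each have 1 E-prime box and 1 short CRE, PER1 has 1 E-box, and PER3 and BMAL1 have none of the motifs.

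The transfection was visible in the CRTC1 probe set, which rose to 11.87 ± 0.457 from 5.90 ± 0.407 on the log2 scale (SD, n = 4 each, limma adjusted p = 3.11e-05). It was the only gene of 22458 past an adjusted p of 0.05, a background of 0.00445%. Markers of the epithelium were present: 10 of 12 measured had a mean level at or above the median of all probe sets, 4.12, and the 2 below it were KRT20 and SI, a keratin and the sucrase-isomaltase of differentiated enterocytes. Array medians lay between 4.11 and 4.15, and the number of arrays limits the precision of every value. Whether each array stands for its own culture is not stated, so the p-values rest on a spread between arrays that may be partly or wholly technical.

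None of the 7 clock genes passed an adjusted p of 0.05 in limma over all 22458 genes. PER2 alone had an unadjusted p under 0.05, 1 gene of 7 where 5.94% of all genes did, and it lay higher with CRTC1, where 3.2% did. PER2 was also the 1 gene whose groups did not overlap, against 3.74% of all genes in either direction and 1.68% with CRTC1 above. The median log2 difference over the 7 genes was 0.02, with 5 higher and 2 lower, and over all 22458 genes it was -0.0050, with 10905 higher and 11553 lower.

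**Figure D2:**
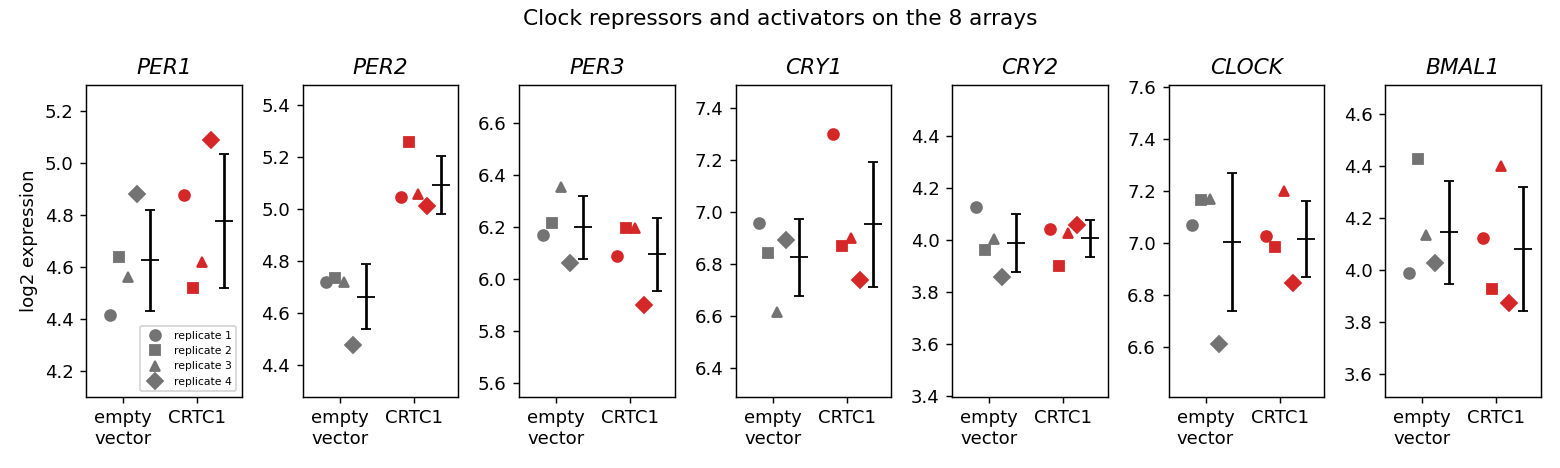
Log2 expression of each clock gene on the 4 empty vector arrays (grey) and the 4 CRTC1 arrays (red), with the mean and SD as bars and the replicate numbers as symbols. Each panel spans the same 1.2 log2 units, and the groups are apart only for PER2, where CRTC1 arrays start at 5.01 and empty vector arrays end at 4.73.

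PER2 (Entrez Gene 8864) encodes a period protein, a scaffold of the repressor complex that carries CRY and casein kinase 1. Its log2 expression was 5.04, 5.26, 5.06 and 5.01 on CRTC1 replicates 1 to 4 and 4.72, 4.73, 4.72 and 4.48 on the empty vector replicates. Every CRTC1 array was higher than every control array, with a gap of 0.28 between the lowest of the first and the highest of the second. The group means were 5.09 ± 0.111 and 4.66 ± 0.124 (SD, n = 4), a log2 difference of 0.43 with a standard error of 0.09. As a ratio this was 1.35-fold, with a 95% interval of 1.16 to 1.56 that is not widened for the number of genes tested. Its unadjusted p of 0.00124 ranked 24 among all genes in limma, and the adjusted p was 0.837. Exact permutation of the arrays, two-sided, gave p = 0.0286, which no comparison of 4 with 4 arrays can go below. In absolute size, 462 genes (2.06%) differed by more. The mean of PER2 over all arrays, 4.88, lay above that of 59.4% of probe sets, and no detection call was available for it. PER2 was already known from these data to have a low p when the genes were chosen, so these tests describe it and are no independent evidence.

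PER1 (Entrez Gene 5187), the period gene with the best known rapid response to cAMP, showed no such separation. Its log2 expression was 4.88, 4.52, 4.62 and 5.09 with CRTC1 and 4.42, 4.64, 4.56 and 4.88 with empty vector. CRTC1 replicate 4 was the only array above all controls, CRTC1 replicate 2 lay below 3 of them, and the groups overlapped. The means were 4.78 ± 0.258 and 4.62 ± 0.195 (SD, n = 4). The log2 difference of 0.15 (standard error 0.15) had a 95% interval of -0.18 to 0.48, or 0.885-fold to 1.39-fold, and did not pass in limma (adjusted p = 0.888). The interval thus includes a rise as large as that measured for PER2 as well as a small fall. Without CRTC1 replicate 4 the difference was 0.05, without empty vector replicate 4, the highest control, it was 0.24, and without both it was 0.13.

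PER3 (Entrez Gene 8863), the period gene least required for rhythm in the mouse, had a difference of the opposite sign. Its log2 expression was 6.09, 6.20, 6.19 and 5.90 with CRTC1 and 6.17, 6.22, 6.35 and 6.06 with empty vector. No CRTC1 array lay above all controls, and 1, replicate 4, lay below all of them. The log2 difference was -0.10 with a 95% interval of -0.33 to 0.12 (limma adjusted p = 0.888), from means of 6.10 ± 0.140 and 6.20 ± 0.122 (SD, n = 4). That interval does not reach the difference measured for PER2.

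CRY1 (Entrez Gene 1407) encodes the stronger repressor of the pair of cryptochromes, proteins related to the DNA photolyases. Its log2 expression was 7.30, 6.87, 6.90 and 6.74 with CRTC1 and 6.96, 6.84, 6.61 and 6.89 with empty vector. CRTC1 replicate 1 was the highest of the 8 arrays, and the other CRTC1 arrays lay within the range of the controls. The log2 difference of 0.13 (95% interval -0.17 to 0.42) did not pass in limma (adjusted p = 0.901), and without CRTC1 replicate 1 it was 0.01.

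CRY2 (Entrez Gene 1408), the other cryptochrome, was at 4.04, 3.90, 4.03 and 4.06 with CRTC1 and at 4.13, 3.96, 4.00 and 3.86 with empty vector on the log2 scale. The CRTC1 arrays all fell inside the range of the controls. The means were 4.01 ± 0.0716 and 3.99 ± 0.113 (SD, n = 4), and the log2 difference of 0.02 had a 95% interval of -0.17 to 0.21 (limma adjusted p = 0.982). A change of CRY2 above 1.16-fold or below 0.887-fold therefore lay outside the interval. Its mean over all arrays was below the median of all probe sets, and without detection calls such dim signal could not be separated from background.

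CLOCK (Entrez Gene 9575), the activator that also has acetyltransferase activity, was at 7.03, 6.98, 7.20 and 6.84 with CRTC1 and at 7.07, 7.16, 7.17 and 6.61 with empty vector on the log2 scale. The group means nearly coincided, at 7.01 ± 0.147 and 7.00 ± 0.266 (SD, n = 4), and the spread among controls came largely from replicate 4. The log2 difference was 0.01, with a 95% interval of -0.30 to 0.32 (limma adjusted p = 0.993). Without empty vector replicate 4 it was -0.12.

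BMAL1 (Entrez Gene 406) encodes the partner of CLOCK and is the clock gene whose single loss stops rhythms in mice. Its log2 expression was 4.12, 3.93, 4.40 and 3.87 with CRTC1 and 3.99, 4.43, 4.14 and 4.03 with empty vector. Of the CRTC1 arrays, 2 lay below all controls and none above all of them. The log2 difference of -0.06 (95% interval -0.38 to 0.25) did not pass in limma (adjusted p = 0.956), and BMAL1 too had a mean below the median of all probe sets. The exact two-sided permutation p-values of the 6 genes other than PER2 ran from 0.400 for PER3 to 0.943 for CLOCK.

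**Figure D3:**
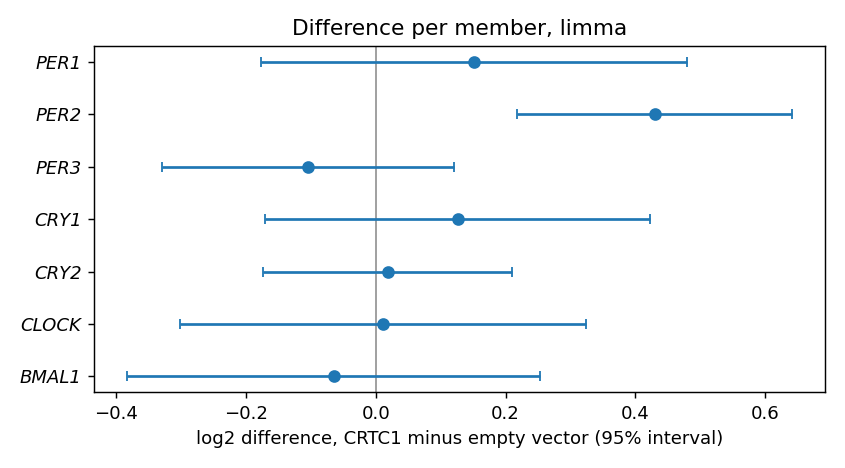
Log2 difference, CRTC1 minus empty vector, for each clock gene (points) with the 95% interval of limma (bars), 4 arrays per group. The interval of PER2, 0.22 to 0.64, lies above 0 and those of the other 6 genes include 0.

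A difference in PER2 and not in another gene does not show that the 2 genes differ, so the change was compared between genes within each array. Over the 21 pairs of clock genes, none passed an exact two-sided permutation test after Benjamini-Hochberg adjustment over the pairs, and the lowest adjusted p was 0.300. At least 13 pairs would have had to reach the smallest possible p for any to pass. Limma fitted to the same 21 differences passed 1 pair, PER2 with PER3 (adjusted p = 0.0382). These differences come from only 7 genes and are not independent, which that fit does not allow for. Its p-values may thus be too small and its intervals too narrow. PER2 was already known from these data to have a low p, so this pair is no independent evidence. The smallest possible unadjusted p, 0.0286, was reached by 2 pairs, PER2 with PER3 and PER2 with CRY2. PER2 differed more than PER3 by 0.53 on the log2 scale (95% interval 0.22 to 0.85), and more than CRY2 by 0.41 (0.09 to 0.73). The value of PER2 minus PER3 within an array, of which only the shift between groups has a meaning, was -1.003 ± 0.111 on the CRTC1 arrays and -1.54 ± 0.0865 on the controls (SD, n = 4), with no overlap. Against CLOCK and BMAL1 the change of PER2 was larger by 0.42 and 0.49, both with an unadjusted exact permutation p of 0.0571. The changes of PER2 and PER1 differed by 0.28, with PER2 larger and an interval on PER1 minus PER2 of -0.66 to 0.11, and an exact permutation p of 0.314. The activators CLOCK and BMAL1 differed in change by 0.08 (95% interval -0.26 to 0.41). The intervals come from that limma fit and carry the same limit.

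How the clock genes varied together within the groups was also examined, and no relation held after adjustment. Each array's deviation from its group mean was correlated between genes over the 8 arrays, with exact permutation within the groups (576 rearrangements). PER1 and PER2 deviated in opposite directions, with Pearson's r = -0.80 (exact permutation p = 0.0139, 0.292 after adjustment over 21 pairs) and Spearman's rho = -0.79 (p = 0.0347, 0.481 after adjustment). Without CRTC1 replicate 4 and empty vector replicate 4, the 2 arrays farthest from the median of the PER1 deviations, r was -0.58. PER1 and PER3 had r = -0.79 (exact permutation p = 0.0347, 0.328 after adjustment) and rho = -0.67 (p = 0.115, 0.481 after adjustment), and r was -0.27 without the same 2 arrays, on which the relation thus rested. PER3 and CLOCK deviated in the same direction, with r = 0.76 (exact permutation p = 0.0469, 0.328 after adjustment) and rho = 0.67 (p = 0.109, 0.481 after adjustment), and r was 0.74 without CRTC1 replicate 4 and empty vector replicate 3, the arrays farthest from the median in PER3. Without both replicate 4 arrays, a choice made after seeing the data, it was 0.30, so this relation too rested on them. The cryptochromes CRY1 and CRY2 had r = 0.13 (exact permutation p = 0.759, 0.998 after adjustment) and rho = 0.10 (p = 0.852, 0.972 after adjustment), and r was 0.19 without CRTC1 replicates 1 and 4.

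**Figure D4:**
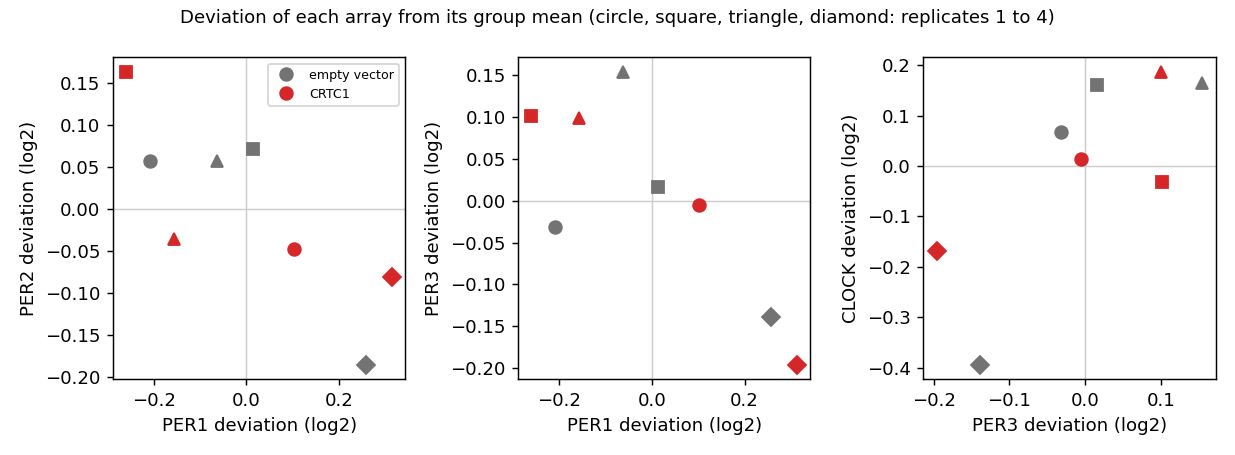
Deviation of each array from its group mean, in log2 units, for PER1 against PER2, PER1 against PER3 and PER3 against CLOCK, with grey symbols for empty vector and red symbols for CRTC1. The diamonds, replicate 4 of each group, lie at the high end of PER1 and the low end of PER3 and CLOCK.

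The genes around the loop were described by 4 lists, chosen with earlier results of these data known, and no member of any list passed an adjusted p of 0.05 in limma. Of other clock genes, 14 of 15 were measured, 9 higher and 5 lower with CRTC1, with a median log2 difference of 0.04 and a lowest adjusted p of 0.837. At an unadjusted p under 0.05 were 2 of them, both higher, where 3.2% of all genes were higher and 5.94% passed in either direction. The groups did not overlap in 2 of the 14 (3.74% of all genes), NFIL3 with CRTC1 above and BMAL2, a paralogue of BMAL1, with CRTC1 below at a log2 difference of -0.14. For BMAL2 the highest CRTC1 array, at 7.097, lay just below the lowest control, at 7.102. NFIL3, a repressor of clock output, was at 6.17 ± 0.249 against 5.60 ± 0.222 (SD, n = 4), a log2 difference of 0.57. RORA, a nuclear receptor that activates BMAL1, was at 3.96 ± 0.261 against 3.62 ± 0.168 (SD, n = 4), a difference of 0.34 with overlapping groups. Both RORA means lay below the median of all probe sets.

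Kinases, ubiquitin ligases and deubiquitinases set the lifetime of PER and CRY proteins. The list of 22 also held the phosphatase subunits PPP1CA, PPP1CB and PPP1CC and the pseudogene FBXL21P. Of the 22, 21 were measured, 12 higher and 9 lower, with a median log2 difference of 0.02 and a range of -0.10 to 0.32. None had an unadjusted p under 0.05. The top of the range was SKP1, at 2.99 ± 0.592 against 2.67 ± 0.301 (SD, n = 4), with both means below the median of all probe sets. The member with the smallest p was FBXW11, a ligase subunit that recognises phosphorylated PER, at a log2 difference of 0.16 (limma adjusted p = 0.838). All its CRTC1 arrays lay above all controls, but only just, with the lowest at 7.517 and the highest control at 7.514. Of 18 partners of the repressor and activator complexes, 15 were measured, 11 higher and 4 lower, with a median of 0.02 and none at an unadjusted p under 0.05. WDR5, a subunit of histone methyltransferase complexes found with PER1, had the smallest p there, with a log2 difference of -0.17 (limma adjusted p = 0.838) and all CRTC1 arrays below all controls. KDM5A, a histone demethylase that binds CLOCK and BMAL1, was the 1 partner with all CRTC1 arrays above the controls, at a log2 difference of 0.20 (limma adjusted p = 0.840). There too the gap was small, from 7.637 on the highest control to 7.642 on the lowest CRTC1 array. Groups did not overlap in 1 of the 21 genes measured from the list of kinases, ligases and deubiquitinases, with CRTC1 above. Of the 15 partners, 1 lay above and 1 below. Over all genes the shares were 3.74% in either direction and 1.68% with CRTC1 above.

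The list of cAMP and CREB immediate targets placed PER2 beside other genes of the same input. All 16 were measured, 13 higher and 3 lower, with a median log2 difference of 0.11, and 2 higher and 2 lower members had an unadjusted p under 0.05, where 5.94% of all genes did. NR4A2, a nuclear receptor induced by cAMP, was at 6.01, 3.95, 4.40 and 3.91 with CRTC1 and between 2.73 and 3.28 with empty vector. Its log2 difference of 1.55 (limma adjusted p = 0.837) had the largest part on CRTC1 replicate 1, an array on which PER2 was not the highest. CREM, a CREB-related gene whose internal promoter gives the repressor ICER, had a log2 difference of 0.19, while the neuropeptide genes VGF and SST had -0.34 and -0.23. Each of these 4 genes had groups that did not overlap, as in 3.74% of all genes, and an adjusted p of 0.837 in limma. CREM and SST in both groups, and NR4A2 with empty vector, had means below the median of all probe sets, 4.12. Such dim signal could not be separated from background.

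**Figure D5:**
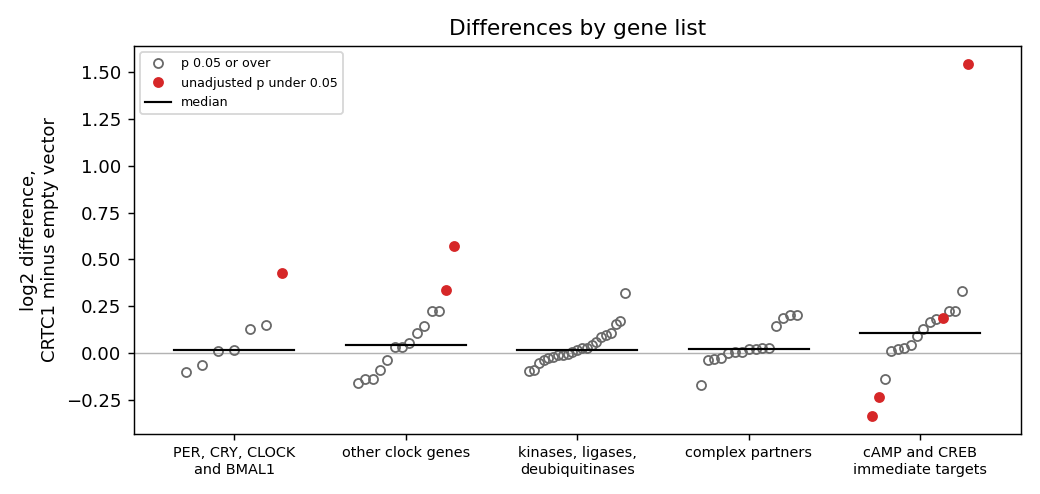
Log2 difference, CRTC1 minus empty vector, of the 7 clock genes and of the measured genes of the 4 lists, 1 point per gene, with filled points at an unadjusted p under 0.05 and a line at each median. PER2 is the 1 filled point among the clock genes, and NR4A2 at 1.55 is the highest point of all.

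Markers of other cell types were set beside these values. The 4 fibroblast markers were all higher with CRTC1, where 10905 of all 22458 genes were higher. Their mean per array ran from 3.57 to 3.63 against 3.39 to 3.51 in the controls, without overlap. Among single genes 3.74% did not overlap, a share that does not carry over to a mean of 4 genes. PDGFRB, a growth factor receptor, had the largest difference of the 4, 0.42 on the log2 scale (limma adjusted p = 0.837) at a mean level of 2.74. The collagen genes COL1A1, COL1A2 and COL3A1 had 0.05, 0.11 and 0.02. Of the 4, only COL1A1, at a mean level of 4.95, reached the median level of all probe sets. Whether the shift of these markers bears on the PER2 difference at all was not tested. The per-array means of 4 leukocyte, 3 endothelial and 3 neuronal markers overlapped between the groups, and none of these 10 genes reached the median level of all probe sets. The neuronal gene SYN1 was the 1 of the 10 with an unadjusted p under 0.05, where 5.94% of all genes had one. Its log2 difference was 0.21 (limma adjusted p = 0.837). The 12 epithelial markers had 3 members higher and 9 lower, with means per array of 7.65 to 7.89 against 7.77 to 7.91.

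The genes most like PER2 and PER1 over the 8 arrays were sought among genes at or above the median level, 11351 besides the gene itself. With PER2 these were SEC16A, an organiser of exit sites on the endoplasmic reticulum (r = 0.98, rho = 0.93), CWF19L2 (r = 0.98, rho = 0.85), CREB3L2, a membrane-bound transcription factor of the CREB3 family (r = 0.95, rho = 0.83), and SPTAN1, a spectrin (r = 0.95, rho = 0.97). Their own log2 differences were 0.13, 0.28, 0.21 and 0.18, all higher with CRTC1 and none past the threshold in limma. With PER1 they were PPOX, an enzyme of haem synthesis (r = 0.95, rho = 0.93), PHPT1, a phosphohistidine phosphatase (r = 0.95, rho = 0.98), CDA, a cytidine deaminase (r = 0.94, rho = 0.90), and TTYH3 (r = 0.92, rho = 0.74). Their log2 differences ran from 0.03 to 0.16. The likeness to PER2 includes the difference between the groups, and r values picked as the highest of 11351 over 8 arrays are a description only.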

How the data were processed

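Biotin-labelled cDNA was made from total RNA with an Affymetrix whole-transcript kit, per the labels' protocols, and measured on 8 arrays, 4 per group. The deposited values are log2 expression, 1 per probe set and array, for 23786 probe sets. The log2 scale was read from the values. The submitters' processing notes list Partek, with no version or role stated. The methods of background correction and array normalization were not given in the sources used here. Arrays on a common scale do not show a shift shared by most genes.

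The platform annotation named 22458 probe sets with 1 symbol each, updated through Entrez identifiers with RefSeq (GRCh38.p14). The 1328 unnamed ones were left out. limma 3.58.1 in R 4.3.3 fitted 1 coefficient per group to all 8 arrays with empirical Bayes moderation, and p-values were adjusted by Benjamini-Hochberg over 22458 genes with a threshold of 0.05. Single values also had an exact permutation test over the arrays, two-sided. The main limma fit was also run on simulated data with known changes, and the outcome is not given here.

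The 7 genes and the lists were chosen with earlier results of these data known. Named besides them were CRTC1, list members with an unadjusted p under 0.05 (at most 6 per list, or the 1 with the smallest p) and the 4 genes with the highest Pearson r with PER1 and with PER2. BMAL2, KDM5A, KRT20, SI, SYN1 and the fibroblast markers were named after their values were seen. Listed genes with no probe set named on the arrays were not analysed here.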

Additional observations from a re-analysis of the deposited data

Results flagged for a closer look

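Dixon's test for an array far from the other 3 was run on 32 groups of 4 arrays (the 7 clock genes, CRTC1 and 8 named list genes), and 2 had one, where chance gives about 1.6. Both were on empty vector replicate 4. PER2 lay there at 4.48, against 4.72 to 4.73 on the other controls. Of those 3, replicates 1 and 3 hold exactly the same deposited value, as happens between 2 or more control arrays in 190 genes (0.846%). WDR5 lay at 7.10 on that array, against 7.03 to 7.04.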

How the results depend on the processing

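The clock genes were refitted under 19 alternatives: a replicate block, quantile normalization, median centring, a filter at the median level, a variance trend with robust moderation, array weights, all probe sets, and each array or replicate number left out. In all 19, 0 genes passed the adjusted threshold, and PER2 was the 1 gene with an unadjusted p under 0.05. Its groups also did not overlap after quantile normalization or median centring. The other alternatives could not bring its groups to overlap. The log2 difference of PER2 ran from 0.37 (without empty vector replicate 4) to 0.46, with adjusted p from 0.539 to 0.970. PER1 (0.05 to 0.24), PER3 (-0.15 to -0.04) and CRY1 (0.01 to 0.22) kept their direction in all 19. Of these, the replicate block, the filter, the variance trend and the fit to all probe sets leave the difference itself as it was. Those settings could not have changed a direction. When single arrays or numbers were omitted, the log2 difference ran from -0.042 to 0.065 for CRY2, from -0.12 to 0.075 for CLOCK and from -0.17 to 0.081 for BMAL1, so that 8 values had the other sign, none of them past the threshold. CRY2 and BMAL1 were too dim for the filter and gave no value there. Limma fitted to the differences between genes passed 1 of 21 pairs, PER2 and PER3 (adjusted p = 0.0382), against 0 in the permutation test, which could not reach the threshold with so few pairs at its smallest p. That limma fit takes the 21 differences as independent, which they are not, so its p may be too small. The permutation tests of pairs passed 0 with any array left out. Their smallest possible p was then still 0.0286, so these tests too needed many pairs at it for any to pass. Comparing same-numbered arrays could not pass any pair, since its smallest p is 0.125.

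Arrays with equal replicate numbers correlated by 0.25, 0.04, 0.06 and 0.12 in their deviations across genes. Between CRTC1 and empty vector arrays with different numbers the correlations ran from -0.14 to 0.02, all lower than those with equal numbers. The labels state no pairing, and the main fit takes same-numbered arrays as independent. With the replicate block PER2 had an adjusted p of 0.539 and no call changed. The number of arrays, 4 per group, and the lack of detection calls limit what dim genes such as CRY2 and BMAL1 can show. PER1 and PER2, with means over all arrays of 4.70 and 4.88, were not far above the median of all probe sets, 4.12. The lack of detection calls applies to them as well. The causes of the differences between settings were not tested.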
